A study of Rattus norvegicus with 9 samples.

Results

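The members are the nuclear genes whose names place them in the mitochondrial respiratory chain or the ATP synthase. A gene was a member where its name in the gene table of any library began with Nduf followed by a, b, c, s or v, with Uqcr, with Cox and a digit from 4 to 8, or with Atp5. This gave 58 names at 58 of the 29328 loci measured, and 56 of the 58 had values high enough to test. Complex I holds 22 subunit loci, complex III 4, cytochrome c oxidase (complex IV) 15 and the ATP synthase 7. The other 10 members are 7 genes that share the name but are no subunit and 3 pseudogenes. The choice used names only and no measured value, though earlier results of these data were known when it was made.

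RNA was sequenced from the hearts of Sprague-Dawley rats in 9 libraries, 3 in each of 3 groups. Fetal libraries are from ventricle at embryonic day 18, numbered as litters, with RNA isolated by Trizol and no operation. TAC libraries are from left ventricle of adults after transverse aortic constriction, which loads the heart with pressure, and sham libraries from left ventricle of adults operated on without the constriction. Both adult groups had RNA from a Qiagen column kit for fibrous tissue, so that stage, heart region and isolation method cannot be told apart in either fetal comparison. No allele or drug is named for any group, and neither the adults' exact age nor the time after surgery is given in the sources used here. Nothing says that adult libraries are separate animals, so p-values measure the spread between libraries, which may be technical.

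The respiratory chain passes electrons from NADH and succinate to oxygen and pumps protons out of the mitochondrial matrix. Complex I takes electrons from NADH, complex III passes them from ubiquinol to cytochrome c, complex IV hands them to oxygen, and the ATP synthase lets protons return to make ATP. Several subunits of complex IV exist in a form used in many tissues and another used in heart and skeletal muscle, testis or lung. The working heart depends on this pathway for most of its ATP, and mitochondria multiply as the heart matures around birth.

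Levels are FPKM, fragments per kilobase of transcript, rescaled to one scale over the 9 libraries. They therefore compare genes as well as libraries, but count no molecules. The deposited confidence bounds implied between 6.37 and 25.75 fragments per library in units of 1e6, and the median member rested on 1519 to 3048 implied fragments. The first principal component of the tested loci held 56.5% of the variance and parted fetal from adult libraries. Along the second, which held 17.1%, every replicate 1 library stood away from the other 6, whose shortest assembled transcript was 63 nt and not 43 nt. Of the listed heart muscle markers 3 of 14 carried a symbol, and they were present in all 9 libraries. Mb (myoglobin) ranged from 648 to 1475 in fetal, from 18787 to 20911 in TAC and from 18536 to 24753 in sham libraries. Hrc ranged from 43.3 to 59.8 in fetal, from 595 to 772.5 in TAC and from 581 to 1062 in sham libraries. Actc1 values overlapped, from 14003 to 135088 in fetal, from 20908 to 27085 in TAC and from 20932 to 24103 in sham libraries. By limma 2 of the 3 were called lower in fetal than in sham and 0 higher, beside 23% and 22.4% of all loci. In such tissue RNA, fewer cells of a type and less RNA per cell cannot be told apart.

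Most subunit genes stood lower in fetal ventricle than in sham left ventricle. Calls of lower level were most of the tested subunits in complexes I and III, 6 of 13 in complex IV and 2 of 7 in the ATP synthase. Of the 56 tested members 31 were lower and 2 higher in fetal by limma, with a Benjamini-Hochberg adjusted p below 0.05 over all tested loci, and 23 were not called. Over all 14201 tested loci 45.4% were called in either direction, 23% lower and 22.4% higher. The median log2 difference of the members was -1.14, beside 0.05 over all loci, and 51 of the 56 had a negative one. Fetal values lay below every sham value at 35 members and above every sham value at 3, whereas 28.7% and 29.2% of all loci did so. The 31 members called lower had fetal means between 5.71% and 62.3% of the sham mean, with a median of 33.3%. Of the 33 calls 23 held when any 1 library was left out; those that did not were Ndufa2, Ndufa3, Ndufa12, Ndufb2, Ndufb5, Ndufb6, Ndufs5, Cox5a, Cox6a1 and Atp5d. Each log2 difference is on the log2(rescaled FPKM + 1) scale.

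**Figure D1:**
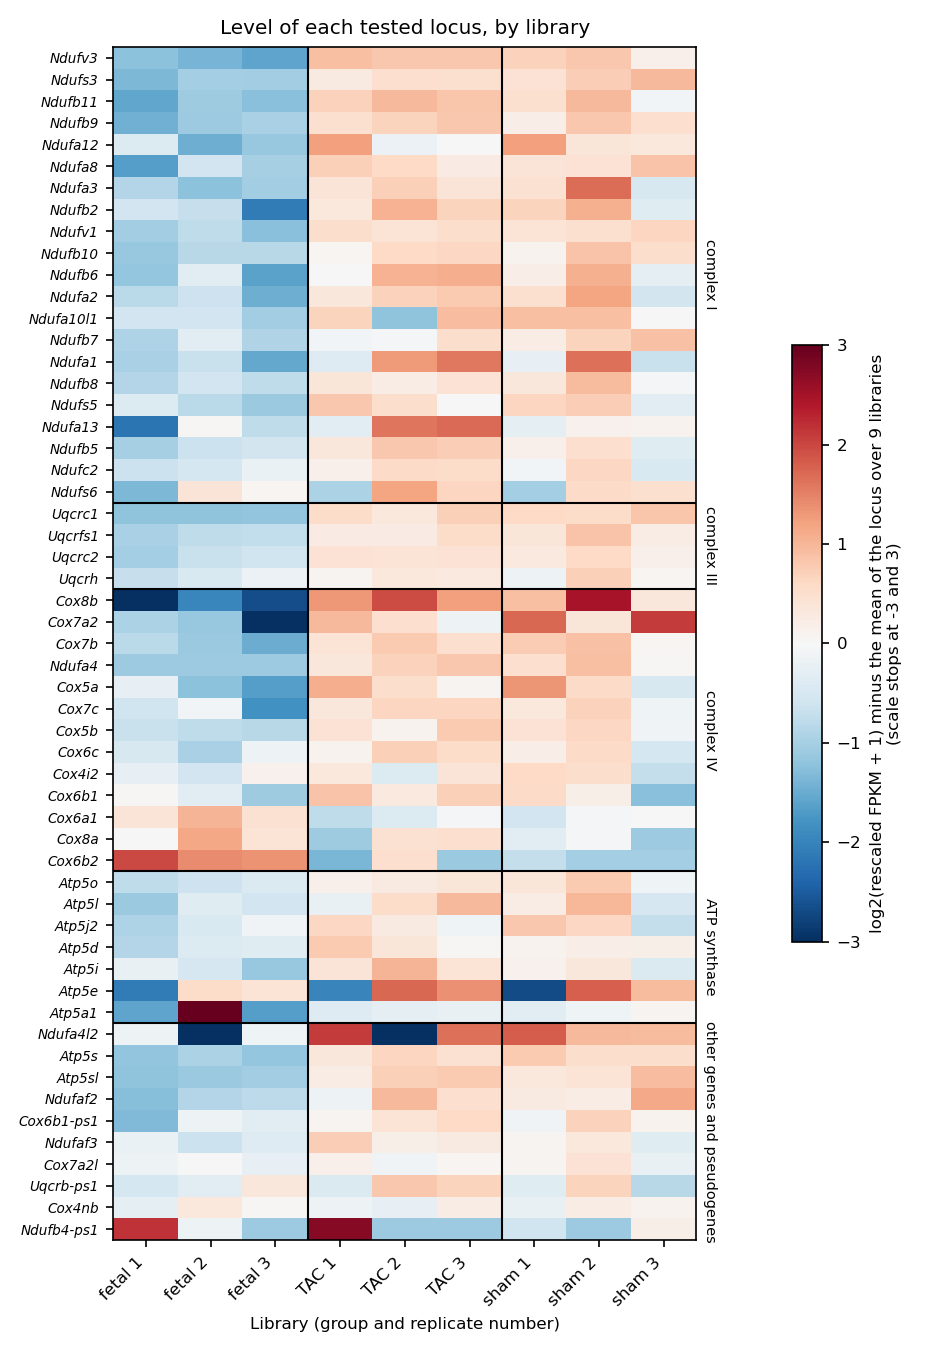
Level of 55 of the 56 tested members in the 9 libraries, as log2(rescaled FPKM + 1) minus the mean of that locus, with rows grouped by complex and ordered by the fetal minus sham difference, and columns by group. Blue cells fill the fetal columns of most rows of complexes I and III, and red cells mark the fetal columns of Cox6b2.

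The same was seen against the other adult group. Between fetal and TAC, 38 members were lower and 2 higher, with a median of -1.22, where 45.5% of all tested loci were called, 22.8% lower and 22.7% higher. An unadjusted p below 0.05 was reached by 52.6% of all loci there and by 52.5% between fetal and sham. Fetal values lay below every TAC value at 41 members and above every TAC value at 2, shares that were 27.6% and 28.3% over all loci. The fetal libraries are the same in both comparisons, so the results are not independent of each other.

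Complex I had the most subunits called lower. There 17 of 22 fell in fetal ventricle relative to sham and 0 rose, where 23% of all loci were called lower and 22.4% higher. The differences ran from -1.96 to -0.30 with a median of -1.39. The median subunit of complex I stood at 199.5, 265 and 242 in fetal libraries, at 519, 670 and 651 in TAC libraries and at 535, 702.5 and 409 in sham libraries. All 3 fetal medians lay below the 6 adult ones.

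Ndufv3, a flavoprotein subunit at the NADH-oxidising end of complex I (rn4 chr20:9951091-9960265), stood at 46.8, 41.2 and 36.5 in fetal libraries, against 180.2, 195 and 124 in sham libraries. The TAC libraries held 208, 193 and 195. All 3 fetal values lay below every adult value, and the fetal minus sham difference was -1.96 ± 0.18 (SE, adjusted p = 6.99e-05).
The RefSeq promoter of Ndufv3 (GRCr8, chr20:9613536-9613835, plus strand, 250 bases before to 50 after the start) is shown because this gene had the lowest difference in complex I. Capitals mark a match to the NRF1 motif, the site of nuclear respiratory factor 1.
Ndufv3: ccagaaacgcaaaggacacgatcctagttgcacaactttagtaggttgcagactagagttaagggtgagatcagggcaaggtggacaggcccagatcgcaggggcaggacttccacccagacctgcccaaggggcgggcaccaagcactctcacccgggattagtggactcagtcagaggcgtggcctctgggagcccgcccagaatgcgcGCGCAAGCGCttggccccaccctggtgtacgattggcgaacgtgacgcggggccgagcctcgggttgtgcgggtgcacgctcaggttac

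Ndufs3, a core subunit of the arm that faces the matrix (rn4 chr3:75256383-75263693), held 215, 269.9 and 263 in fetal libraries, against 736, 911 and 1082 in sham libraries. The groups did not overlap, and the difference was -1.85 ± 0.19 (SE, adjusted p = 9.97e-05). Ndufb9, an accessory subunit of the membrane arm and the complex I member of highest mean level, stood at 461, 590 and 639 in fetal libraries, against 1442, 2192 and 1779 in sham libraries. Its groups did not overlap, with a difference of -1.67 (adjusted p = 0.000508). Ndufv1, the core subunit that binds NADH, fell by 1.53 on the log2 scale (adjusted p = 0.000208).

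Of the 5 complex I subunits not called, 3 sat at loci whose chromosome in the rn4 files is not that of the gene of that name in RefSeq. These are Ndufa10l1, Ndufa13 and Ndufs6, with differences of -1.33, -0.95 and -0.30, and of the 3 Ndufa13 was called lower against TAC (-1.96, adjusted p = 0.0379). The other two, Ndufa1 (-1.30, adjusted p = 0.15) and Ndufc2 (-0.49, adjusted p = 0.179), were called lower against TAC (-1.89, adjusted p = 0.0496, and -0.89, adjusted p = 0.0292). These calls against TAC were lost for Ndufa1, Ndufc2 and Ndufa13 when TAC replicate 2 or 3 was left out, among other libraries. At loci with introns and a matching chromosome, 17 of 19 complex I subunits fell against sham and 19 of 19 against TAC. Over all loci 23% and 22.8% were called lower in these comparisons.

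Complex III fell in 3 of its 4 subunits relative to sham, with a median of -1.21, where 23% of all loci were called lower. Uqcrc1, a core subunit (rn4 chr8:113955254-113967671), stood at 382, 384 and 388 in fetal libraries, against 1338, 1297 and 1574 in sham libraries. TAC libraries held 1295, 1094 and 1456. The fetal values were nearly equal to each other and under every adult one, and the difference was -1.86 ± 0.17 (SE, adjusted p = 6.04e-05).
The RefSeq promoter of Uqcrc1 (GRCr8, chr8:118467973-118468272, plus strand) is shown because it had the lowest difference in complex III. Capitals mark a match to the NRF1 motif and, at the start itself, a match to that of YY1, a zinc finger factor.
Uqcrc1: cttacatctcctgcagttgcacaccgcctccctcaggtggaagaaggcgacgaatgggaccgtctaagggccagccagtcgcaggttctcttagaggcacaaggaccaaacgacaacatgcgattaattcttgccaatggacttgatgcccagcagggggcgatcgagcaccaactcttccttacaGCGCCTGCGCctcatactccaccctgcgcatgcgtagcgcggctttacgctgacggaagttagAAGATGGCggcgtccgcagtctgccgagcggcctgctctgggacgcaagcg

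Uqcrfs1, the Rieske iron-sulfur protein that takes electrons from ubiquinol, stood at 654, 763 and 773 in fetal libraries, against 1674, 2336 and 1505 in sham libraries, a difference of -1.31 (adjusted p = 0.00162). Uqcrc2, the second core subunit, stood at 474, 606 and 639 in fetal libraries, against 1183, 1473 and 1069 in sham libraries, a difference of -1.11 (adjusted p = 0.00182). Neither gene overlapped between fetal and sham. The call of Uqcrc2 was lost with reference transcripts only (-0.71, adjusted p = 0.346), which leaves out transcripts assembled in single libraries, and there it stood at 0.16 against TAC. Uqcrh, the hinge protein, missed the threshold at -0.65 (adjusted p = 0.0669), though its fetal values of 532.5, 627 and 769 all lay below the sham values of 776, 1421 and 899.9. It was called lower with a replicate block, the replicate number as an added term.

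**Figure D2:**
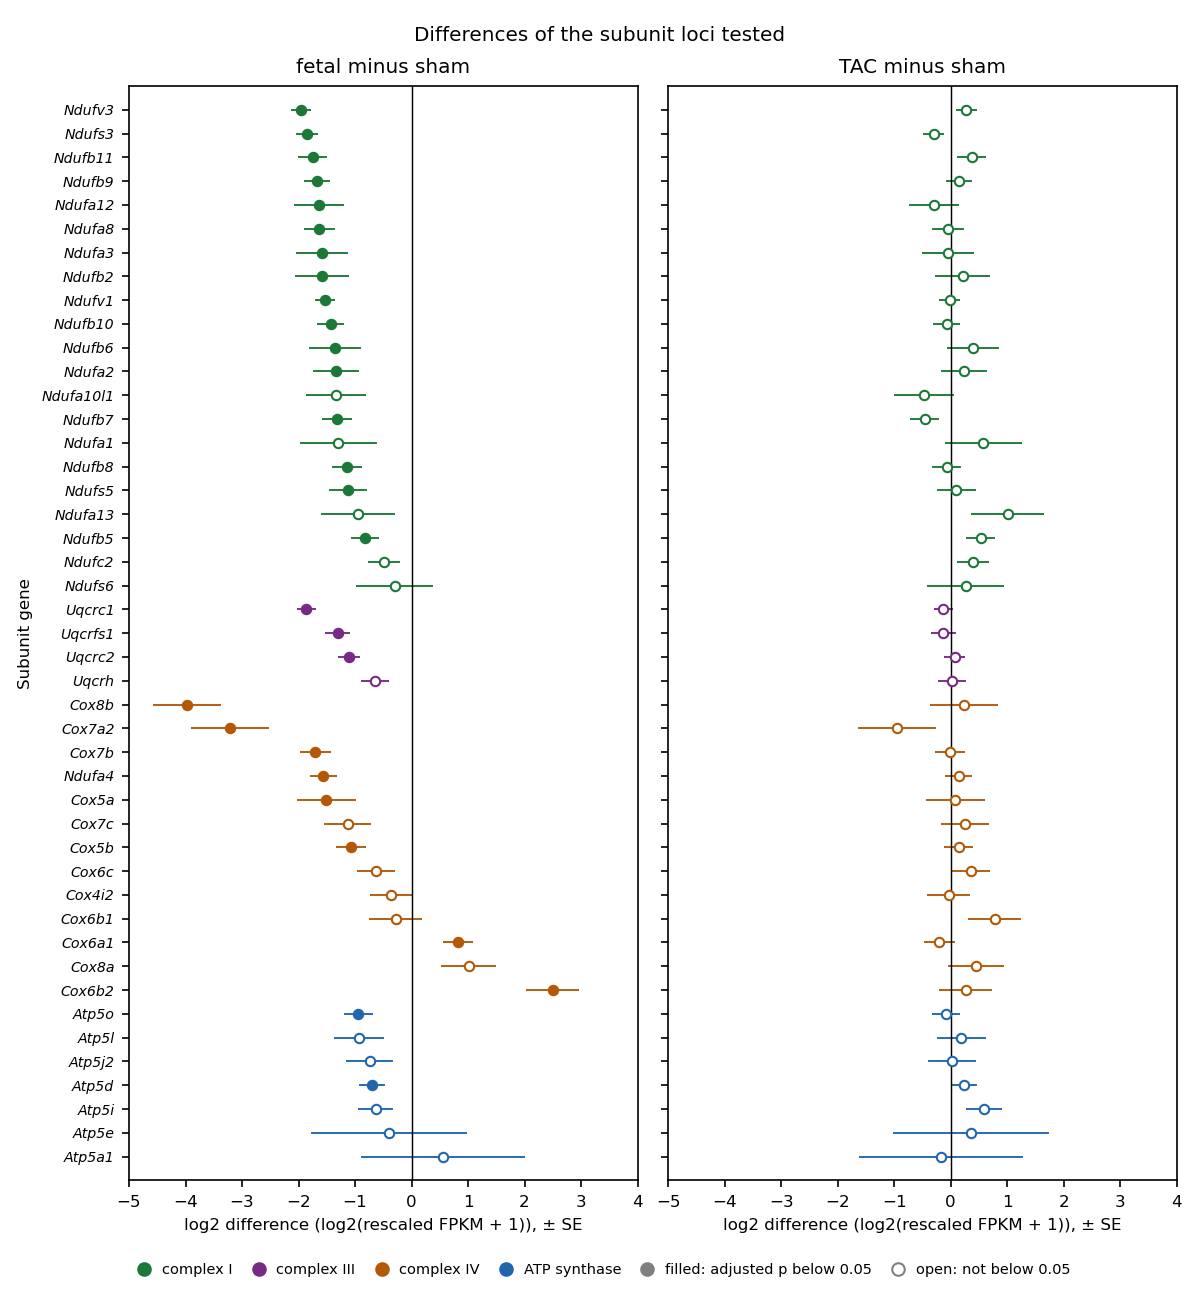
Log2 difference of 45 of the 46 tested subunit loci with its standard error, fetal minus sham on the left and TAC minus sham on the right, coloured by complex. Filled points have an adjusted p below 0.05 by limma: 29 on the left, 27 of them below 0, and 0 on the right.

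Complex IV was the one complex with subunits called in both directions. Of 13 tested subunits 6 fell and 2 rose in fetal ventricle relative to sham, where 23% of all loci were called lower and 22.4% higher. The count that rose is thus not above the background. The median was -1.07, with the widest spread of any complex, from -3.98 to 2.50. Cox8c and Cox7b2, forms of testis, were listed at 0 in all 9 libraries and were not tested. Both ends of that range were genes of subunits that have several tissue forms.

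Cox8b, the muscle form of subunit 8 (rn4 chr1:201057314-201058867), was the complex IV subunit of highest mean level and had the lowest difference of any member. It stood at 149, 471 and 289 in fetal libraries, at 4449, 7040 and 4238 in TAC libraries and at 3409, 10181 and 2321 in sham libraries. Every fetal value lay far under every adult value. The fetal minus sham difference was -3.98 ± 0.60 (SE, adjusted p = 0.000892), with a fetal mean of 5.71% of the sham mean, and the fetal minus TAC difference was -4.22 ± 0.60 (SE, adjusted p = 0.000671). The sham mean rests largely on sham replicate 2, and without it the fetal minus sham difference was -3.36.

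Cox8a, the form of subunit 8 made in most tissues (rn4 chr1:209886141-209888647), went the other way in value. It held 672, 1479 and 877 in fetal libraries, 317, 908.5 and 945 in TAC libraries and 535, 639 and 311 in sham libraries. Fetal values lay above every sham value but overlapped the TAC values, and the difference of 1.01 ± 0.49 (SE) from sham was not called (adjusted p = 0.127). It was called with equal library totals that leave out the 10 largest loci (adjusted p = 0.0423) and with replicates 2 and 3 alone (adjusted p = 0.0473), within a range of adjusted p from 0.0423 to 0.329 over the alternatives.

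The form that predominated differed between stages. Cox8a exceeded Cox8b in all 3 fetal libraries, and Cox8b exceeded Cox8a in all 6 adult libraries. The ratio of Cox8b to Cox8a was 0.221, 0.318 and 0.329 in fetal libraries, 14, 7.75 and 4.48 in TAC libraries and 6.37, 15.9 and 7.47 in sham libraries. On the log2 scale it averaged -1.81 ± 0.31 in fetal (SD, n = 3) and 3.08 ± 0.70 in adult libraries (SD, n = 6), a difference of -4.89 (exact two-sided permutation test, p = 0.0238, the smallest p that 3 against 6 libraries allow). With a replicate block the exact p was 0.0741 and with replicates 2 and 3 alone 0.133, each the smallest its design allows, and in both no fetal ratio reached an adult one. This was the only pair of muscle and ubiquitous forms with both genes named in the files, so no adjustment over pairs was needed. Between TAC (2.97 ± 0.82) and sham (3.19 ± 0.71, SD, n = 3 each) the log2 ratio differed by -0.21 (exact two-sided permutation test, p = 0.8, where the smallest p possible is 0.1), and the values overlapped.

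**Figure D3:**
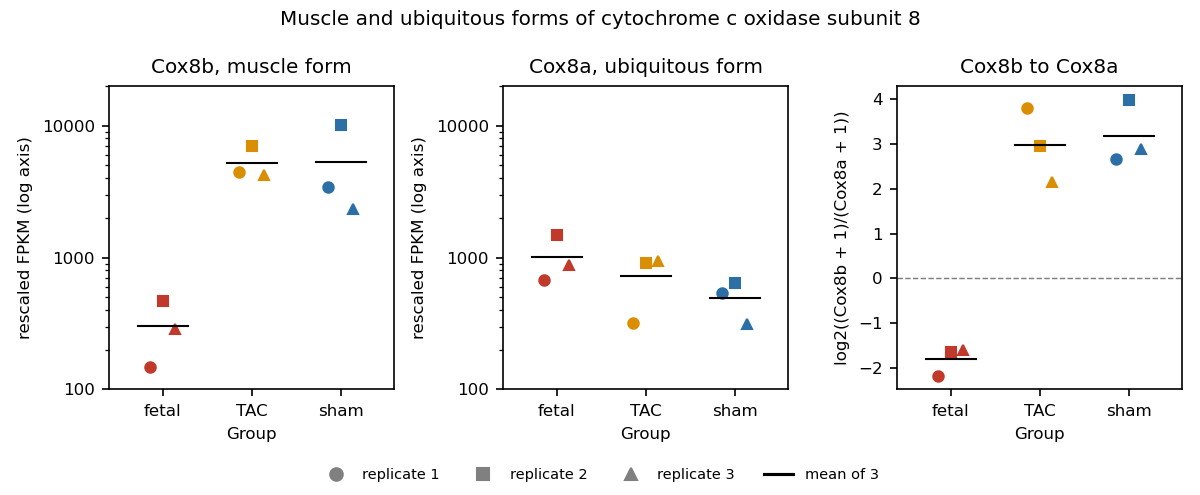
Rescaled FPKM of Cox8b and Cox8a on log axes, and the log2 ratio of the pair, in each library of the 3 groups, with a line at the group mean and a symbol for each replicate number. The ratio lies between -2.17 and -1.60 in fetal libraries and between 2.16 and 3.99 in the 6 adult libraries.

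The promoters of the pair are shown because Cox8b had the lowest difference of all members and Cox8a a positive one. They are RefSeq sequences of GRCr8, chr1:205408224-205408523 for Cox8b and chr1:213833574-213833873 for Cox8a, both on the minus strand and read 5′ to 3′. Capitals mark a TATA box in Cox8b and, in Cox8a, 2 matches to the GABP motif (the site of nuclear respiratory factor 2) and 1 to the YY1 motif.
Cox8b: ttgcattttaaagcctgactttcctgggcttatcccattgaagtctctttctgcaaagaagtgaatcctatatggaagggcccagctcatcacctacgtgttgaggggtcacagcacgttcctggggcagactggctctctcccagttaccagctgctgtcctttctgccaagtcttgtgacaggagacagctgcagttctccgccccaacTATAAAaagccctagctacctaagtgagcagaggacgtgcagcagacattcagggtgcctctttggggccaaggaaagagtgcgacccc
Cox8a: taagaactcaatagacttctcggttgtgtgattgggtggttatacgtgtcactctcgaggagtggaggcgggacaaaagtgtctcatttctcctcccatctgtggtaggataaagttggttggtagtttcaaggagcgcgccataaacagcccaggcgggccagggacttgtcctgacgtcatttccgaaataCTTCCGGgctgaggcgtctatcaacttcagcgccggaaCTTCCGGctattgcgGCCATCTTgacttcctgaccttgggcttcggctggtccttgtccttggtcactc
Cox8b had CpG at 0.24 of the number its C and G content would give, and Cox8a at 0.76. The median was 0.549 over 19005 protein-coding promoters and 0.864 over 37 promoters of subunits at loci with introns and a matching chromosome.

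Cox6a1, the ubiquitous form of subunit 6a (rn4 chr12:42530027-42533144), was higher in fetal ventricle. It stood at 1265, 1959 and 1334 in fetal libraries, at 573, 731 and 932.5 in TAC libraries and at 657, 948 and 956 in sham libraries. All fetal values lay above all adult ones. The difference from sham was 0.82 ± 0.27 (SE, adjusted p = 0.0354) and that from TAC 1.03 ± 0.27 (SE, adjusted p = 0.0142), the second not called with reference transcripts only (adjusted p = 0.0748). The call against sham was lost without fetal replicate 2 (adjusted p = 0.105) or 3 (0.0563), TAC replicate 2 (0.0523) or sham replicate 1 (0.115) or 2 (0.0535). Using no filter (0.06), only replicates 2 and 3 (0.0751) or reference transcripts only (0.146) ended it too, with a lowest value of 0.00504 over all alternatives.

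Cox7a2, the ubiquitous form of subunit 7a, was lower in fetal ventricle. Its locus (rn4 chr8:84813293-84817543) stood at 61.6, 54.6 and 10.5 in fetal libraries, at 237, 172 and 109 in TAC libraries and at 399.5, 156 and 517 in sham libraries. The groups of fetal and sham libraries did not overlap, and the difference was -3.22 ± 0.69 (SE, adjusted p = 0.00562), the second lowest of the subunits. The third fetal value was well under the other two, and without fetal replicate 3 the difference was -2.44. Cox7b, which many tissues make, fell by 1.70 on the log2 scale (adjusted p = 0.00113), and its groups did not overlap. With reference transcripts only that call was lost (-1.07, adjusted p = 0.3005). Cox6b1, with 304.5, 237 and 142 in fetal libraries, against 446, 333 and 124 in sham libraries, was not called (-0.28, adjusted p = 0.658). Its pseudogene Cox6b1-ps1 stood higher in each of these libraries, at 601, 1362 and 1183 in fetal and 1409, 2430 and 1626 in sham. Reads may be shared between these loci, which was not tested, so the level of Cox6b1 itself is uncertain.

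Cox6b2, a form known from testis (rn4 chr1:67810508-67811750), was low in every library but higher in fetal ones. It held 14.6, 9.63 and 9.06 in fetal libraries, 0.547, 4.67 and 0.825 in TAC libraries and 1.42, 0.945 and 0.959 in sham libraries. No adult value reached a fetal one, and the difference from sham was 2.50 ± 0.47 (SE, adjusted p = 0.00271). In implied fragments these values rest on 26, 52 and 68 in fetal, 1, 9 and 3 in TAC and 6, 4 and 6 in sham libraries, so the adult levels are known only roughly. Cox4i2, the form of subunit 4 known from lung, stood at 24.7, 19.3 and 32.0 in fetal libraries, at 36.8, 21.9 and 38.5 in TAC libraries and at 44.8, 42.5 and 17.4 in sham libraries. The groups overlapped, and no difference was called (-0.36 against sham, adjusted p = 0.479).

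**Figure D4:**
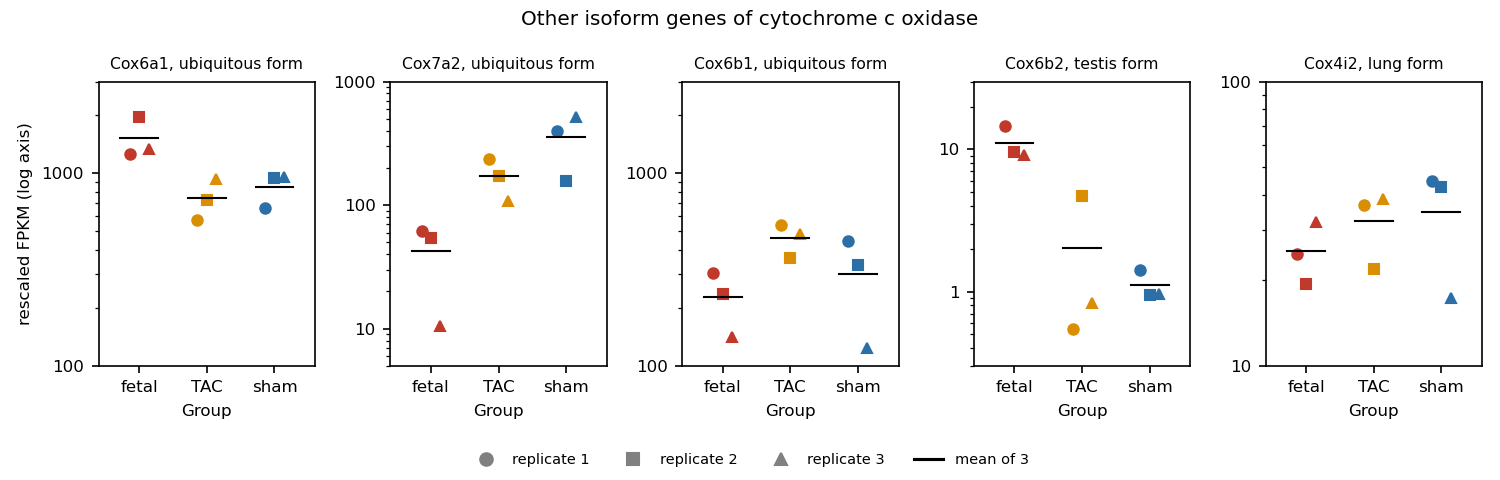
Rescaled FPKM on log axes of 5 complex IV genes that exist in several tissue forms, by group, with a line at the mean of 3 libraries and a symbol for each replicate number. Cox6a1 and Cox6b2 lie higher in all fetal libraries than in all adult ones, Cox7a2 lies lower, and Cox6b1 and Cox4i2 overlap between fetal and sham.

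Among the other subunits of complex IV, Ndufa4, which was first described in complex I, had a difference of -1.56 (adjusted p = 0.00108). Cox5b fell by 1.07 on the log2 scale (adjusted p = 0.00958), and Cox5a fell by 1.51 (adjusted p = 0.0417). The Cox5b call was lost with reference transcripts only (-0.53, adjusted p = 0.274) and with replicates 2 and 3 alone (adjusted p = 0.0641). The Cox5a call was lost without fetal replicate 2 (adjusted p = 0.106) or 3 (0.132), TAC replicate 2 (0.0589) or sham replicate 1 (0.125) or 2 (0.0986). Cox7c (-1.13, adjusted p = 0.0557, but called with a replicate block) and Cox6c (-0.63, adjusted p = 0.164) were not called against sham. Against TAC both were called (-1.38, adjusted p = 0.0262, and -0.99, adjusted p = 0.041), and Cox6c was not with a replicate block. Both calls were lost without TAC replicate 2 or 3, that of Cox7c also without fetal replicate 3, and that of Cox6c also without fetal replicate 1 or 2 or sham replicate 1.

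The ATP synthase had the fewest subunits called. In fetal ventricle 2 of 7 were lower than in sham, with a median of -0.70, and 3 of 7 were lower than in TAC, with a median of -0.87. Over all loci 23% and 22.8% were called lower, so these counts are near the background, and both calls against sham were lost under some alternatives. The medians of the complexes were not tested against each other. Atp5o, the protein that ties the catalytic head to the peripheral stalk (rn4 chr11:31914322-31920711), stood at 765, 837 and 951 in fetal libraries, against 1657, 2220 and 1181 in sham libraries. The groups did not overlap, and the difference was -0.94 ± 0.25 (SE, adjusted p = 0.0142). That call was lost with equal library totals (adjusted p = 0.0642), replicates 2 and 3 alone (0.0965) and reference transcripts only (0.187). Atp5d, the delta subunit of the central stalk, held 368, 516.5 and 534 in fetal libraries, against 728, 783 and 765 in sham libraries. It was lower by limma at -0.70 (adjusted p = 0.0352), but not with a replicate block (adjusted p = 0.0513). Without fetal replicate 1 the adjusted p was 0.109, and it lay above 0.05 as well without fetal replicate 2, TAC replicate 2 or any of the 3 sham libraries.

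The membrane subunits Atp5i, Atp5j2 and Atp5l had differences of -0.63, -0.74 and -0.93 from sham, none of them called. Atp5i was called lower against TAC (-1.22, adjusted p = 0.0128, and 0.087 with reference transcripts only), and against sham with a replicate block. Genes of subunit c carry no symbol in the files and were not analysed here.

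Atp5a1 (rn4 chr18:74735214-74743088), which encodes the alpha subunit of the catalytic head and had the highest mean of all members, turned on a single library. It stood at 2040, 142499 and 1941 in fetal libraries, at 4694, 5025 and 5236 in TAC libraries and at 4822, 5625 and 6491 in sham libraries. Fetal replicates 1 and 3 lay below every adult value and fetal replicate 2 far above. In fetal replicate 2 the reference transcript was listed at 0, and an assembled transcript of 626 nt held 100% of the locus, whereas the largest transcript in every other library was the reference one, of 1732 to 1785 nt. The fetal minus sham difference was 0.56 ± 1.45 (SE, adjusted p = 0.783), and -1.49 (adjusted p = 0.00379) without fetal replicate 2. In implied fragments the locus rested on 56371, 1111055 and 57001 in fetal libraries. The part of the short transcript in the value of fetal replicate 2 was not tested. Among the marker genes Actc1, cardiac actin, showed the same pattern, with 14003, 135088 and 18852 in fetal, 27085, 20908 and 22885 in TAC and 21083, 20932 and 24103 in sham libraries.

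Atp5e, the epsilon subunit, varied by replicate number. It stood at 89.5, 562 and 510.2 in fetal libraries, at 96.9, 1275 and 1001 in TAC libraries and at 58.9, 1334 and 742 in sham libraries. Replicate 1 was the lowest of every group, by a wide margin. The locus has no intron and lies on another chromosome than the gene of this name in RefSeq. Over the 6 tested members without introns or on another chromosome, replicate 1 was lowest in all 3 groups at 4, against 7 of the other 50.

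**Figure D5:**
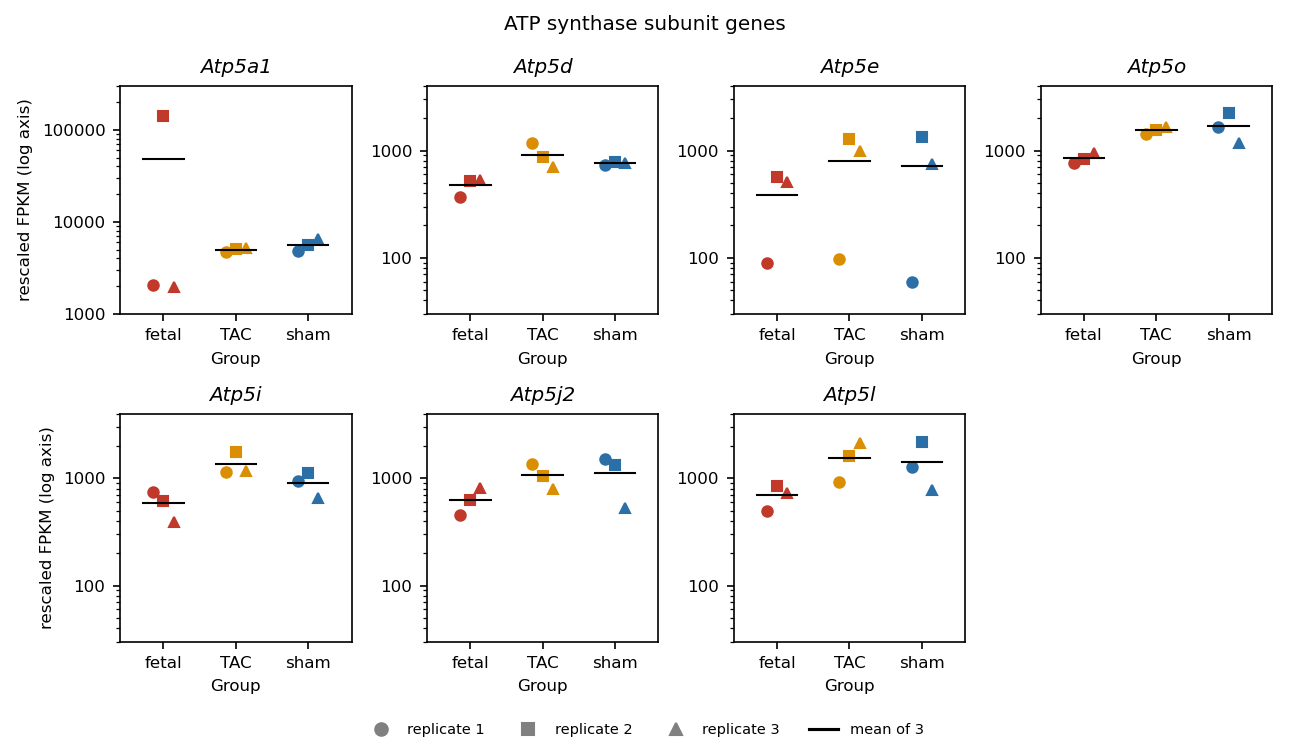
Rescaled FPKM of the 7 ATP synthase subunit genes on log axes, by group, with a line at the mean of 3 libraries and a symbol for each replicate number. Fetal replicate 2 of Atp5a1 stands at 142499, and replicate 1 of Atp5e is below 100 in every group.

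Of the 7 genes that share the names without being subunits, 3 were called lower and 4 were not called, where 23% of all loci were called lower. Atp5s, known as a coupling factor (rn4 chr6:91771672-91799618), stood at 10.5, 12.7 and 10.8 in fetal libraries, against 44.0, 36.7 and 37.1 in sham libraries. The difference was -1.71 ± 0.14 (SE, adjusted p = 3.89e-05), and the groups did not overlap. Atp5sl is known in human cells to help assemble the distal membrane arm of complex I. It averaged 26.8 ± 1.77 in fetal and 89.0 ± 21.3 in sham libraries (SD, n = 3 each), a difference of -1.67 (adjusted p = 0.000288 by limma). Its values rest on 6, 9 and 192 implied fragments in fetal and 21, 1271 and 2679 in sham libraries. Where these are few, the level of Atp5sl is known only roughly. The complex I assembly factor Ndufaf2 fell by 1.53 on the log2 scale (adjusted p = 0.00645), and Ndufaf3 (-0.42, adjusted p = 0.153) was not called. Cox7a2l, which helps join complexes into supercomplexes (-0.24, adjusted p = 0.309), and Cox4nb, a gene of the endoplasmic reticulum that only shares the name (-0.01, adjusted p = 0.978), were not called. Ndufa4l2 was listed at 0 in fetal replicate 2 and TAC replicate 2 and stood between 9.71 and 50.5 elsewhere. None of the 3 pseudogenes was called in either fetal comparison, but Cox6b1-ps1 was called in both with a replicate block and with a term for replicate 1, and against TAC under several other alternatives. Reads may be shared between a pseudogene and its parent gene.

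Between TAC and sham 0 of 56 members were called by limma, and 0 had an unadjusted p below 0.05. Over all 14201 loci 0.0141% were called, 0.00704% lower and 0.00704% higher, and 4.32% had an unadjusted p below 0.05. The median difference of the members was 0.09, beside -0.01 over all loci, with 23 negative and 33 positive. A p that misses the threshold does not show that levels were equal: the largest SE among the subunits, that of Atp5a1, was 1.45. Over all loci TAC values lay below every sham value at 4.56% and above every sham value at 4.26%, and among the members Atp5i lay above.

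Atp5i, a membrane subunit, held 1144, 1762 and 1162 in TAC libraries, against 953, 1110 and 649 in sham libraries. Every TAC value was the higher one, with a difference of 0.59 ± 0.31 (SE, unadjusted p = 0.0955 by limma, adjusted p = 1). Ndufb5 held 683, 943 and 907 in TAC libraries, against 596, 770.5 and 420 in sham libraries (0.53, unadjusted p = 0.0662 by limma). Ndufb7 held 626, 634 and 945 in TAC libraries, against 773, 1051 and 1207 in sham libraries (-0.46), and Ndufaf3 held 93.4, 63.0 and 67.9 in TAC libraries, against 59.1, 69.8 and 43.4 in sham libraries (0.38). In these 3 genes the groups overlapped. For Cox8b the TAC minus sham difference was 0.24 ± 0.60 (SE) and for Cox8a 0.45 ± 0.49 (SE).

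Genes that are not members but act in or beside the respiratory chain were counted from lists of 6 kinds. The counts are over the genes that carry a symbol in the files and passed the filter. Among the electron carriers is Cyc1, a subunit of complex III whose name the choice of members did not take. Both measured subunits of complex II, which passes electrons from succinate, fell in fetal ventricle relative to sham, as did 4 of 5 electron carriers, 3 of 4 genes of coenzyme Q synthesis and 8 of 13 assembly factors. Of 7 genes of nucleotide exchange, membrane pores and uncoupling 4 fell and 1 rose, and of 11 regulators 4 fell and 0 rose. Over all loci 23% were called lower and 22.4% higher. The lists are short, and their counts were not tested against those shares. Between TAC and sham 0 genes of these lists were called, where 0.0141% of all loci were. Genes encoded by mitochondrial DNA carry no symbol in the files and were not analysed here.

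Etfa, which passes electrons from fatty acid oxidation toward ubiquinone, stood at 201, 214 and 175 in fetal libraries, against 982, 1107 and 983 in sham libraries. The groups did not overlap, and the difference was -2.38 ± 0.15 (SE, adjusted p = 8.77e-06). Its partner Etfb fell by 1.73 on the log2 scale (adjusted p = 0.000734). Sdha, the flavoprotein of complex II, fell by 1.32 (adjusted p = 0.00142), and Ecsit, an assembly factor of complex I, fell by 1.89 (adjusted p = 5.09e-05). Coq2 (-1.64) and Pdss2 (-1.35), enzymes of coenzyme Q synthesis, fell too. Among regulators, Esrra, the estrogen-related receptor alpha that acts on genes of oxidative metabolism, fell by 2.07 (adjusted p = 0.000395), and Sirt3, a mitochondrial deacetylase, fell by 2.14 (adjusted p = 2.62e-05). Tfam, which packages mitochondrial DNA, was not called (-0.27, adjusted p = 0.113).

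Ucp3, a muscle uncoupling protein, was listed at 0 in all 3 fetal libraries and stood at 21.5, 8.75 and 14.1 in sham libraries. Vdac1, a pore of the outer membrane, stood at 2.44, 2.78 and 1.06 in fetal libraries, against 5.89, 19.3 and 4.98 in sham libraries. These levels are near the filter of 1. Its difference was -1.66 (adjusted p = 0.0304 by limma). That call was lost without fetal replicate 1 (0.0575) or 3 (0.101) or sham replicate 2 (0.0771), without a filter (0.0528) and with reference transcripts only (0.125). Vdac2 and Vdac3 stood at 227 or more in every library, with differences of -0.70 (adjusted p = 0.0173) and -0.30 (adjusted p = 0.31). Slc25a5, an ATP and ADP exchanger found in many tissues, was the gene of these lists that rose. It stood at 640.4, 499 and 556 in fetal libraries, against 375, 279 and 257 in sham libraries, a difference of 0.91 (adjusted p = 0.00479), and it was picked out after its values were seen.

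Motifs were searched on both strands of the 37 promoters, 300 bases each, of subunits at loci with introns and a matching chromosome. The YY1 motif (AANATGGC) was found in 12 of the 37 (32.4%), and in 8.02% of all protein-coding promoters. The GABP motif (CCGGAAG) was found in 11 (29.7%), against 11.2% of all, and the NRF1 motif (GCGCA, any base, then GCGC) in 6 (16.2%), against 6.09% of all. CCAAT was found in 12 (32.4%, against 38.4%), the GC box GGGCGG in 16 (43.2%, against 43.1%) and TATAAA in 3 (8.11%, against 13.1%). The MEF2 motif (CTA and TAG with any 4 bases between) was found in 1 and that of the estrogen-related receptors (TNAAGGTCA) in 0, against 3.41% and 0.994% of all. Of the 25 promoters whose genes were called lower against sham, 5 held the NRF1 motif, 5 the GABP motif and 8 the YY1 motif. Of the other 12 promoters 1 held the NRF1 motif, 6 the GABP motif and 4 the YY1 motif. These are letters in a window, not shown sites of binding, and the GC box shares letters with GC-rich sequence of any promoter. The NRF1 and GABP motifs hold CpG. The median ratio of CpG to the number expected was 0.864 in the 37 promoters and 0.549 over all. The shares were not compared with promoters of like CpG content.

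Markers of other cell types differed between the same libraries. Their counts stand beside 23% of all loci called lower and 22.4% called higher between fetal and sham. Macrophage markers fell in 6 of 6 measured genes between fetal and sham, with summed levels from 57.8 to 68.0 in fetal, from 293 to 485 in TAC and from 273 to 506 in sham libraries. Fibroblast markers fell in 5 of 6, with sums from 190.2 to 250.6 in fetal, from 1504 to 1590.0 in TAC and from 1046 to 1491 in sham libraries. Endothelial markers fell in 3 of 4, with sums from 93.7 to 170.0 in fetal, from 193 to 294.5 in TAC and from 161 to 282.5 in sham libraries. Erythroid markers rose in 3 of 6, with sums from 17000 to 27124 in fetal, from 4946 to 10056 in TAC and from 5005 to 12504 in sham libraries, and epicardial ones rose in 2 of 3, with sums from 32.7 to 47.4 in fetal, from 11.7 to 14.4 in TAC and from 9.16 to 13.3 in sham libraries. Of smooth muscle markers 1 of 3 rose and 1 fell, and 0 of 2 skeletal muscle markers were called. Ucp1, which defines brown fat, was listed at 0 in 8 libraries and at 0.12 in fetal replicate 3. Fabp4, from the same list, stood at 103, 207 and 218 in fetal libraries, against 783, 885 and 584 in sham libraries. It was called lower (-2.14, adjusted p = 0.000997 by limma). Between TAC and sham 0 markers were called, where 0.0141% of all loci were. Their part in the differences of the members was not tested.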

How the data were processed

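RNA of 9 libraries was sequenced after Illumina TruSeq preparation, which per the labels' protocols started from 5 ug of total RNA. Reads were processed by the authors with TopHat 1.3.1, Cufflinks 1.0.3 and Cuffdiff on rat build rn4, per the submitters' processing notes. The deposited FPKM values, given for genes and isoforms together with confidence bounds, carry a further constant that differs between libraries, so they were rescaled.

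Loci were joined through 39492 reference transcripts, 2 of which were joined when at least 5 libraries put them in the same gene, and a locus sums its reference and assembled transcripts. Values were scaled by the median of ratios over 13178 loci above 0 in every library, to a mean library total of 1e6. Loci of at least 200 nt with at least 1 rescaled FPKM in at least 3 libraries were tested as log2(value + 1) with limma 3.58.1 (R 4.3.3, eBayes with trend, all 9 libraries), adjusted over all 14201 loci. The scripts were tested on simulated data. Fragments were estimated from the confidence bounds, and intervals for them cover counting error only.

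Libraries with the same number, read from the titles, deviated together (correlations from 0.15 to 0.51 over the 3 numbers). The labels do not say that a number pairs libraries, so the main fit is unpaired and the replicate block is an alternative. Unlike numbers among replicates 2 and 3 correlated as well (0.12 to 0.28), so replicate 1 alone stands apart. The fit with a replicate block is given beside each call that it ended and beside some of those that it added. Of 58 names, 48 matched a RefSeq symbol and 10 a synonym. Promoters are RefSeq, GRCr8, while loci are on rn4. Genes named in the text are those of muscle and ubiquitous pairs, the 3 largest called changes and the highest mean of each complex, all members called higher, and the 5 smallest p-values of TAC against sham. Of these, 1 gene is not reported here or drawn, though it stays in the counts. Other members are given by their difference, and of the 2 largest changes in each list the 10 largest in all. Members and lists were chosen with earlier results of these data known. Alternatives were 2 other scalings, a pseudocount of 0.1, no filter and a filter of 5, no trend, only the libraries compared, the replicate block, replicates 2 and 3 alone, each library left out, reference transcripts only and, chosen after seeing the data, a term for replicate 1 and a restriction to subunit loci with introns and a matching chromosome.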

Additional observations from a re-analysis of the deposited data

How the results depend on the processing

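The counts of members called kept within 1.5 times under every alternative but 1. With reference transcripts only, 17 members were called between fetal and sham, 18 between fetal and TAC and 0 between TAC and sham, and over all loci 2056, 2136 and 41. Leaving out 1 library gave 25 to 35 members for fetal against sham, 29 to 42 for fetal against TAC and 0 for TAC against sham, and 2 to 5 loci in all for TAC against sham. Replicates 2 and 3 alone gave 23, 28 and 0 members, and 10 loci in all for TAC against sham. The replicate block gave 36, 44 and 0, and beside Atp5d and Cox6c it ended no call of a member. Of the 33 members called between fetal and sham, 23 kept the call when any 1 library was left out and 16 under every alternative that tests all members.

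The split over all loci moved with the scale. Equal totals without the 10 largest loci called 4329 higher and 2468 lower between fetal and sham, where median-of-ratios scaling called 3183 and 3267, and 4457 higher and 2371 lower between fetal and TAC, beside 3227 and 3232. Equal totals called 3674 and 2290 between fetal and TAC. The median over all loci between fetal and sham was 0.30 and 0.19 there, and that of the members -0.85 and -0.97.

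The Cox8b to Cox8a difference between fetal and adult was -4.89 with the block (exact permutation p = 0.0741), -4.63 with replicates 2 and 3 alone (0.133) and between -5.07 and -4.70 with 1 library left out. The exact p was 0.0714 without any 1 fetal library, the smallest that 28 splits allow. Between TAC and sham the pair stood at -0.89 with replicates 2 and 3 alone and ran from -0.63 to 0.19 with 1 library left out, with 0.19 without TAC replicate 3 or sham replicate 2.

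Of single genes, Atp5a1 turned to -1.49 against sham and -1.32 against TAC without fetal replicate 2, and to -4.92 and -4.99 with reference transcripts only; leaving out other single libraries took it up to 1.61 and 1.78. With reference transcripts only, Uqcrc2 stood at 0.16 (fetal minus TAC), Ndufb5 at -0.07 and Ndufaf3 at -0.01 (TAC minus sham). Between TAC and sham, where neither was called, Cox4i2 stood at 0.09 with replicates 2 and 3 alone and between -0.46 and 0.22 with 1 library left out, and Cox8b between -0.21 (without sham replicate 3) and 0.86. The causes were not tested. Cox6b2 in adult libraries rests on 1 to 9 implied fragments, where depth limits what can be told. The same holds for Atp5sl in fetal replicates 1 and 2, at 6 and 9.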
